A study of Mus musculus with 12 samples.

Results

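The 10 genes described here are Stmn2, Lgi2, Pde1b, Clrn1, Fbxl22, Frem1, Lrrc16b, Nos1, Gja4 and Syngr1, out of 31332 genes in the count table of sorted mouse thymic epithelium. They were chosen by their counts: each was higher in Cre libraries than in control libraries when the cortical and medullary effects were averaged. All 10 were among the 17268 genes with enough counts to be tested. Because the genotype comparison selected them, the size of that comparison is given below as a description without a p-value, and only comparisons that the selection did not use are tested.

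The sorted cells formed 4 groups of 3 libraries: Cre cTEC (numbers 10 to 12), control cTEC (7 to 9), Cre mTEC (4 to 6) and control mTEC (1 to 3). cTEC are cortical and mTEC medullary thymic epithelial cells, purified by flow cytometry from dissociated thymuses of C57BL6/J mice 2 months old. Controls carried floxed LXRalpha and LXRbeta alleles, and Cre animals carried the same floxed alleles plus FoxN1-Cre, a recombinase driven by a promoter of thymic epithelium. A second label field marks the control samples WT and the Cre samples F1, which does not name floxed alleles, and the genotypes given here follow the genotype field. By that field every group had floxed alleles, and no group with FoxN1-Cre and unfloxed receptors was analysed here, so the effect of Cre itself and of receptor deletion cannot be told apart. The labels do not say whether libraries came from separate animals, so the p-values measure the spread between these libraries, which may be technical.

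The liver X receptors (LXRs) belong to the nuclear receptors, bind oxysterols and, paired with the retinoid X receptor, act on genes of cholesterol efflux and lipid synthesis. In the thymus, cTEC support the early steps of T cell development, and mTEC present self antigens to maturing T cells. mTEC are known for promiscuous expression, in which many genes typical of other tissues, neural and muscle genes among them, are transcribed at low level so that developing T cells meet their products.

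Total counts ran from 4804697 in library 11 to 11159013 in library 1, so that a single read was worth 0.0898 to 0.194 CPM, the count of a gene relative to the scaled library total. Nr1h2, which encodes LXRbeta, was at 115 ± 11.1 CPM in Cre cTEC and 172 ± 17.5 CPM in control cTEC, and at 79.2 ± 14.7 CPM in Cre mTEC and 122 ± 11.4 CPM in control mTEC (SD, n = 3 each). Averaged over the cell types it fell by 0.61 on the log2 scale (edgeR adjusted p = 0.000433). Nr1h3, which encodes LXRalpha, was at 8.38 CPM in Cre cTEC and 7.7 CPM in control cTEC, and its averaged change of 0.21 did not pass the test (edgeR adjusted p = 0.587). Foxn1, whose promoter drives the recombinase, was at 111 ± 48.3 CPM in Cre cTEC and 318 ± 42.5 CPM in control cTEC, and averaged over the cell types it fell by 1.58 (edgeR adjusted p = 0.000683); its part in the results below was not tested. Counts over a whole gene do not measure how many cells lost the floxed part, so loss of the receptors was not measured by these values. Markers of both sorted cell types were present in their own cells: the summed level of 10 cTEC markers, Psmb11 and Prss16 among them, was at least 9640 CPM in every cTEC library and at most 2730 CPM in any mTEC library. This sum was 10200 to 21200 CPM in Cre cTEC and 9640 to 11700 CPM in control cTEC. In cTEC, edgeR called 6 of the 10 markers higher in Cre and 2 lower, against 5.62% and 3.38% of all genes tested. The part of this shift in the members' differences was not tested. The summed level of 10 mature mTEC markers, Aire and Cd80 among them, was 1600 to 2120 CPM in Cre mTEC and 2120 to 2300 CPM in control mTEC, against 106 to 151 CPM in Cre cTEC and 87.8 to 115 CPM in control cTEC. The sum of 8 corneocyte markers was 99.7 to 135 CPM in Cre mTEC and 240 to 303 CPM in control mTEC. It was 44.9 to 66.8 CPM in Cre cTEC and 63.5 to 68.9 CPM in control cTEC. In mTEC, edgeR called 0 of the 8 higher in Cre and 5 lower, against 0.585% and 1.49% of all genes tested. The sum of 8 immature mTEC markers was 3000 to 3390 CPM in Cre cTEC and 4400 to 5100 CPM in control cTEC. It was 6480 to 8390 CPM in Cre mTEC and 7410 to 8080 CPM in control mTEC. In cTEC, edgeR called 1 of the 7 tested higher in Cre and 4 lower. The part of these marker shifts in the members' differences was not tested. In sorted bulk samples, more cells of a kind that uses a gene and more RNA per cell cannot be told apart.

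The promoters of the members that the results turn on show what surrounds their start sites. RefSeq promoter windows on GRCm38.p6, from 250 bases before to 50 after a start, were at hand for 9 of the 10 members, with 13 windows in all; Stmn2 had no entry. The windows below belong to the members with unequal genotype effects in cTEC and mTEC (Lrrc16b, Gja4 and Pde1b), the member with the second largest averaged change (Lgi2) and a member at its highest level in cortical cells (Syngr1). Capitals mark any of 6 motifs read on both strands: AGGTCA, the nuclear receptor half-site; a direct repeat of AGGTCA with a spacer of 4 bases, the arrangement LXR pairs are known to bind; the TATA box TATAAA; the GC box, which reads GGGCGG; the E-box, which reads CACGTG; and a CpG-bearing motif that reads GACGC. The capitals CCGCCC mark the GC box on the other strand, and the capitals GCGTC mark the last motif there.
Lrrc16b, chr14:55490819-55491118, plus strand: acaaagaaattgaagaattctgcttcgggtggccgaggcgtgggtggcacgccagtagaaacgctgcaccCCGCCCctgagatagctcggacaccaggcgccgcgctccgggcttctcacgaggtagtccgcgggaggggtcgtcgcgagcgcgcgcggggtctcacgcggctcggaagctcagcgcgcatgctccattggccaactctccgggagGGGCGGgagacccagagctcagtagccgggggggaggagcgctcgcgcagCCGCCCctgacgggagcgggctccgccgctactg
Gja4, chr4:127313990-127314289, minus strand: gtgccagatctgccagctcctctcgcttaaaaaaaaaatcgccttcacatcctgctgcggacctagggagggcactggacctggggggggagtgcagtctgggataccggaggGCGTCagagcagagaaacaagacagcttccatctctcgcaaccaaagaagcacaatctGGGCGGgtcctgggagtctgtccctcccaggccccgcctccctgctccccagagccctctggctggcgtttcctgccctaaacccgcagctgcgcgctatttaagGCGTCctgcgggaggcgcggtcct
Pde1b, chr15:103502784-103503083, plus strand: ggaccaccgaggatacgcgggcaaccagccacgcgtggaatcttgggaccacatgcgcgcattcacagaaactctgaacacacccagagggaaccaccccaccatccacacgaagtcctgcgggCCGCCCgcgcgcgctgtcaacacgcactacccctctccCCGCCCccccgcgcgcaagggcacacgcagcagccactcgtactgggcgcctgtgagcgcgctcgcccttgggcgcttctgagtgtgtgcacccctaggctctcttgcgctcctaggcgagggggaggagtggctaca
Lgi2, chr5:52566257-52566556, minus strand: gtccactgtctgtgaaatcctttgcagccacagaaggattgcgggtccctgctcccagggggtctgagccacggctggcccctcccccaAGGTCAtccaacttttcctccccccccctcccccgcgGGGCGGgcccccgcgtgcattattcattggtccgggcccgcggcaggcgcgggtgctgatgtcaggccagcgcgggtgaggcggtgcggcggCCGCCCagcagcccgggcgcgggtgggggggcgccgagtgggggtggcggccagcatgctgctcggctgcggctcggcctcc
Syngr1, chr15:80091084-80091383, plus strand: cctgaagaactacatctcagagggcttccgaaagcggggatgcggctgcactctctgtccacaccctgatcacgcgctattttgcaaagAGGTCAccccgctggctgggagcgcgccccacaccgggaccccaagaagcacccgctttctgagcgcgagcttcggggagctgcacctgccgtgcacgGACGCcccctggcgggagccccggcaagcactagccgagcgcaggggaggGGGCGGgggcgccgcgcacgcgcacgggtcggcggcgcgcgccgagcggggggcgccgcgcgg

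The motif counts below are by gene, over any of the 13 member windows, while the shares are by single window. The 2 are thus unlike measures, since Pde1b had 3 windows and Frem1 and Lrrc16b had 2 each. Of the 9 members with a window, 4 held AGGTCA (Lgi2, Fbxl22, Frem1 and Syngr1), against 16.3% of all 32851 windows in the RefSeq table. Frem1 held it in 1 of its 2 windows. It lay 161 bases before the start in both Lgi2 and Syngr1, and 4 bases before it in Fbxl22. The direct repeat was in 0 of the 9, against 0.0152% of all windows. GGGCGG was found in 6 members (Lgi2, Pde1b, Fbxl22, Lrrc16b, Gja4 and Syngr1), against 35.7% of all windows, and Lrrc16b held 3 copies in the window shown. GACGC was in Nos1, Gja4 and Syngr1, CACGTG in Fbxl22 and TATAAA in 1 of the 3 Pde1b windows, against 27.2%, 7.15% and 13.6% of all windows. The windows differed in base composition: G and C made up 73.3% of the Lgi2 window, 72.3% of that of Syngr1 and 69.7% of that of Lrrc16b, against 48.7% for Clrn1 and a median of 52.7% over all windows (quartiles 45.7% and 61.7%). A match to these letters describes the window only and is not a measurement of binding.

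The averaged effect that chose the members ran from a log2 fold change of 0.97 for Fbxl22 to 1.90 for Stmn2. Among all genes tested, 621 were called higher in Cre when averaged (3.6%) and 624 lower (3.61%). Of the 621, 163 had Cre and control libraries that did not overlap in either cell type, and 147 of those also had a mean of at least 5 CPM and a proper gene name. The members held 8 of the 10 highest places among the 147, with Dll3 and Cdhr1 between them, and the lowest were Clrn1 at place 16 and Fbxl22 at place 18. Just inside the lower end were Clrn1 at 0.98 and Fbxl22 at 0.97, and the next 3 genes down, which are no members, were Pdlim3 at 0.95, Ednra at 0.93 and Rragd at 0.92. The median log2 fold change of the members was 1.16 averaged, 1.70 in cTEC and 1.06 in mTEC, against 0.01, -0.02 and 0.01 over all genes tested. In cTEC, 5.62% of genes tested were called higher in Cre and 3.38% lower. In mTEC these shares were 0.585% and 1.49%. Nothing is read from the members' counts in these 3 comparisons, which used the counts that chose them.

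**Figure D1:**
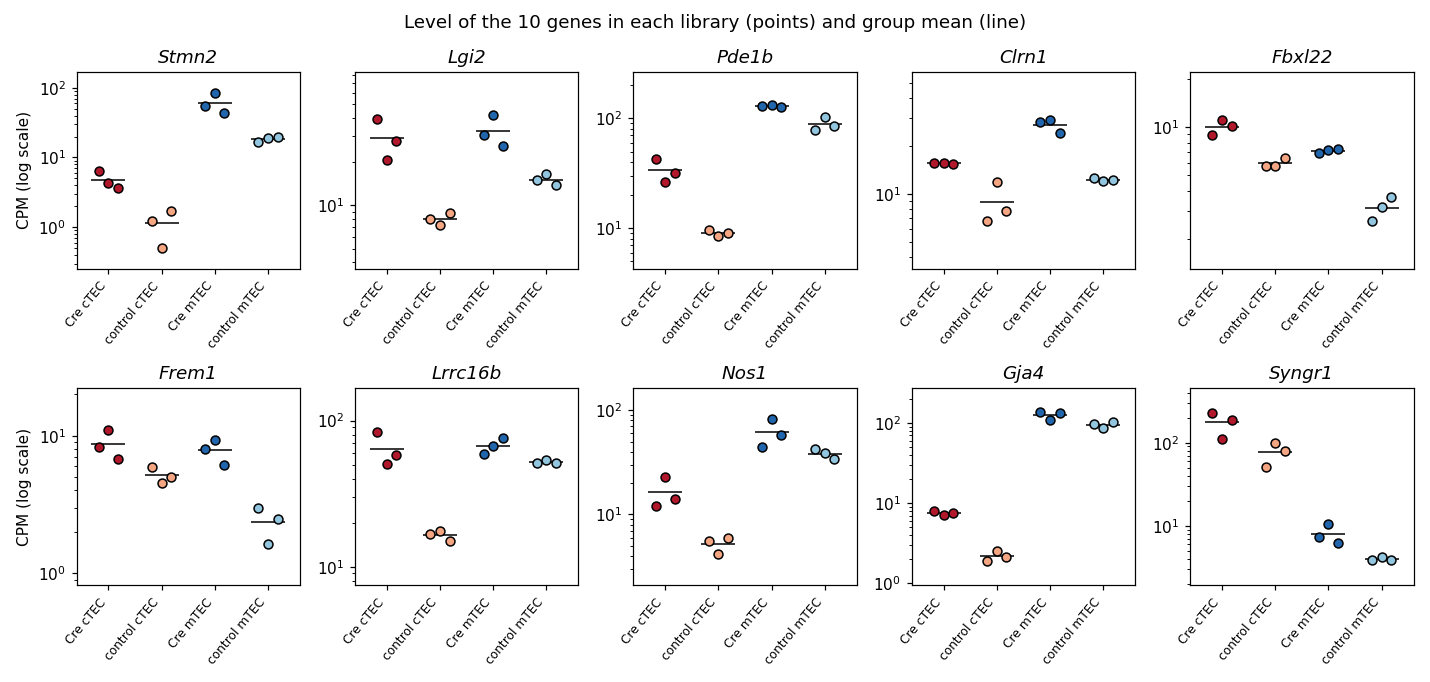
Level of each of the 10 genes in every library, in CPM on a log axis; points are the 3 libraries of a group, bars the group mean, with Cre left of control for cTEC and then for mTEC. In each gene and cell type the 3 Cre points lie above the 3 control points, a direction that the choice of the genes favours. The narrowest gaps are those of Nos1 in mTEC (44.9 against 42.2 CPM) and Gja4 in mTEC (107 against 101 CPM).

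Of the 3 members best known from neurons, Stmn2 and Nos1 were higher in mTEC and Syngr1 was higher in cTEC. Stmn2, a tubulin-binding stathmin of growing neurites, was at 55.1, 84.8 and 43.5 CPM in Cre mTEC, against 16.5, 18.8 and 19.6 CPM in control mTEC. In cTEC it was at 6.48, 4.28 and 3.66 CPM in Cre libraries, which held 22 to 58 counts, against 1.21, 0.505 and 1.71 CPM in control libraries, which held 3 to 12 counts. All 6 Cre libraries were above all 3 controls of their own cell type, and the log2 fold change was 2.06 (SE 0.43) in cTEC and 1.74 (SE 0.21) in mTEC. It had the largest averaged log2 fold change of the 10, 1.90 (SE 0.23), and every mTEC library exceeded every cTEC library.

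Nos1, the neuronal nitric oxide synthase, was at 12.2, 22.9 and 14.2 CPM in Cre cTEC, against 5.53, 4.20 and 6.00 CPM in control cTEC. The mTEC values were 44.9, 81.6 and 57.8 CPM in Cre libraries, against 42.2, 38.6 and 34.1 CPM in control libraries. The mTEC groups were close, with Cre library 4 only 1.06 times the highest control library. The log2 fold change was 1.60 (SE 0.28) in cTEC and 0.68 (SE 0.20) in mTEC.

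Syngr1, an integral protein of synaptic vesicles, was far higher in cTEC than in mTEC. Cre cTEC libraries held 227, 110 and 188 CPM, against 51.0, 98.7 and 78.8 CPM in control cTEC. The lowest Cre cTEC library, 11, was 1.12 times the highest control. Cre mTEC libraries held 7.30, 10.4 and 6.12 CPM, against 3.86, 4.16 and 3.92 CPM in control libraries. Its log2 fold change was 1.20 (SE 0.22) in cTEC and 0.99 (SE 0.36) in mTEC, and 1.43 in cTEC without library 11. The cTEC marker Prss16, a thymus serine protease, was at 5480, 2000 and 3680 CPM in the same Cre cTEC libraries and at 1770, 2270 and 1760 CPM in control cTEC, so library 11 was the lowest of the 3 Cre libraries for it too. Its part in the Syngr1 difference was not tested. Syngr1 overlaps Rpl3 on the opposite strand in GENCODE M21, and the library kit does not mark strand; Rpl3 was listed at 16.2 ± 1.48 CPM in Cre cTEC and 17.1 ± 0.655 CPM in control cTEC (SD, n = 3 each).

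The next genes encode matrix or secreted proteins and an enzyme of second messengers. Lgi2, a secreted leucine-rich protein that binds receptors of the ADAM22 family, was at 39.8, 20.4 and 27.6 CPM in Cre cTEC, against 7.95, 7.23 and 8.85 CPM in control cTEC. Its mTEC levels were 30.7, 42.0 and 25.8 CPM in Cre, against 14.8, 16.4 and 13.9 CPM in control libraries. The Cre groups overlapped each other, and both were above all 6 controls. The log2 fold change was 1.88 (SE 0.23) in cTEC and 1.12 (SE 0.20) in mTEC.

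Pde1b, a calcium- and calmodulin-dependent phosphodiesterase of cAMP and cGMP, was at 43.1, 26.4 and 31.9 CPM in Cre cTEC, against 9.68, 8.58 and 8.99 CPM in control cTEC. Medullary libraries gave 131, 133 and 127 CPM in Cre, against 78.0, 102 and 85.5 CPM in control libraries. The cTEC groups were far apart, with the lowest Cre library 2.73 times the highest control, and in mTEC this ratio was 1.24. The log2 fold change was 1.91 (SE 0.18) in cTEC and 0.56 (SE 0.13) in mTEC.

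Frem1, a matrix protein of the FRAS and FREM family found in epithelial basement membranes, was at 8.27, 11.1 and 6.73 CPM in Cre cTEC, against 5.88, 4.54 and 5.00 CPM in control cTEC. Among mTEC, Cre libraries held 8.06, 9.34 and 6.12 CPM, against 2.96, 1.64 and 2.48 CPM in control libraries. The groups were nearest in cTEC. The log2 fold change was 0.74 (SE 0.27) in cTEC and 1.71 (SE 0.28) in mTEC.

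Gja4 encodes connexin 37, a gap junction protein best known from arterial endothelium. It was at 8.05, 7.19 and 7.60 CPM in Cre cTEC, against 1.90, 2.52 and 2.14 CPM in control cTEC. The mTEC values were 136, 107 and 131 CPM in Cre libraries, against 96.2, 86.0 and 101 CPM in control libraries. The medullary level was far above the cortical level in both genotypes, and the log2 fold change was 1.80 (SE 0.22) in cTEC and 0.40 (SE 0.11) in mTEC. The summed level of 12 endothelial markers was 23.4 to 47.4 CPM in Cre cTEC and 34.5 to 53.2 CPM in control cTEC, and 64.1 to 86.9 CPM in Cre mTEC and 70.1 to 79.5 CPM in control mTEC. Among its defining genes, Pecam1 averaged 5.59 CPM in Cre cTEC, 7.14 CPM in control cTEC, 7.39 CPM in Cre mTEC and 7.20 CPM in control mTEC, and none of the 12 was at 0 in a whole group. The ranges of the sum overlapped between Cre and control in both cell types, and its part in the Gja4 values was not tested.

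The sum of 8 pericyte and smooth muscle markers was 584 to 629 CPM in Cre cTEC and 447 to 703 CPM in control cTEC, and 1870 to 2420 CPM in Cre mTEC and 1660 to 1930 CPM in control mTEC. In cTEC the log2 fold change was positive for 3 of the 8 genes, with a median of -0.10. In mTEC it was positive for 7 of the 8, with a median of 0.21, and edgeR called 0 higher and 0 lower there. Notch3, a receptor of mural cells, was at 27.5 ± 4.16 CPM in Cre cTEC and 6.82 ± 2.56 CPM in control cTEC, and Rgs5, another mural cell marker, at 23.9 ± 6.75 CPM in Cre cTEC and 13.3 ± 1.88 CPM in control cTEC (SD, n = 3 each). Myh11, smooth muscle myosin, was at 209 ± 62.5 CPM in Cre cTEC and 80.9 ± 18.9 CPM in control cTEC (SD, n = 3 each). The contractile genes Acta2 (144 ± 33.9 CPM in Cre cTEC and 190 ± 59.3 CPM in control cTEC) and Tagln (187 ± 27.9 CPM in Cre cTEC and 228 ± 73.6 CPM in control cTEC) had lower means in Cre, as did Cspg4 and Pdgfrb. In cTEC, edgeR called 3 of the 8 higher in Cre and 0 lower, against 5.62% and 3.38% of all genes tested. These were Notch3 by 1.98 (edgeR adjusted p = 7.84e-06), Myh11 by 1.38 (adjusted p = 6.14e-05) and Rgs5 by 0.81 (adjusted p = 0.0457). The part of pericytes and smooth muscle cells in the members' differences was not tested.

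Lrrc16b, now named Carmil3, belongs to the CARMIL proteins that bind actin capping protein. It was at 83.3, 50.5 and 58.0 CPM in Cre cTEC, against 16.8, 17.5 and 15.0 CPM in control cTEC. Cre mTEC libraries held 58.7, 67.3 and 75.9 CPM, against 50.8, 53.6 and 51.0 CPM in control libraries. The Cre cTEC libraries had reached the range of the medullary libraries, and the log2 fold change was 1.97 (SE 0.17) in cTEC and 0.38 (SE 0.15) in mTEC.

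Fbxl22 is an F-box protein of striated muscle that brings filamin C and alpha-actinin-2 to a ubiquitin ligase. It was at 8.94, 11.1 and 10.2 CPM in Cre cTEC, against 5.71, 5.72 and 6.42 CPM in control cTEC. Its mTEC levels were 6.85, 7.23 and 7.34 CPM in Cre, against 2.61, 3.17 and 3.66 CPM in control libraries. These were tight groups, with a pooled SD of log2(CPM + 1) of 0.13, as for Gja4. The log2 fold change was 0.75 (SE 0.21) in cTEC and 1.19 (SE 0.22) in mTEC. The annotation places Herc1 over Fbxl22 on the opposite strand, and Herc1 was at 110 ± 7.81 CPM in Cre cTEC and 76.2 ± 2.23 CPM in control cTEC, and at 153 ± 6.25 CPM in Cre mTEC and 175 ± 19.2 CPM in control mTEC (SD, n = 3 each). Herc1 rose in cTEC by 0.54 (edgeR adjusted p = 0.00256), and its log2 fold change in mTEC was -0.19 (adjusted p = 0.42). The part of Herc1 reads in the Fbxl22 counts was not tested. The summed level of 13 striated muscle markers was 237 to 313 CPM in Cre cTEC and 125 to 148 CPM in control cTEC, and 496 to 637 CPM in Cre mTEC and 533 to 652 CPM in control mTEC. Most of the cortical difference was Actn3, the fast muscle alpha-actinin, at 226 ± 74.6 CPM in Cre cTEC and 87.0 ± 16.2 CPM in control cTEC (SD, n = 3 each). Actn2, which encodes the known target alpha-actinin-2, was at 1.17 CPM in Cre cTEC and 1.28 CPM in control cTEC. The part of muscle-like cells in the Fbxl22 difference was not tested.

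Clrn1, the membrane protein clarin-1 of hair cells and photoreceptors, mutated in a form of Usher syndrome, was at 15.8, 15.5 and 15.4 CPM in Cre cTEC, against 6.74, 11.9 and 7.85 CPM in control cTEC. Medullary libraries gave 28.5, 29.4 and 24.2 CPM in Cre, against 12.7, 12.1 and 12.2 CPM in control libraries. Control library 8 was the nearest to the Cre cTEC libraries. The log2 fold change was 0.82 (SE 0.18) in cTEC and 1.15 (SE 0.16) in mTEC.

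Set per kilobase of the longest annotated transcript, the members spanned a wide range of levels. Gja4 was the highest in mTEC, at 74 CPM per kb in Cre mTEC and 56.1 CPM per kb in control mTEC, and Syngr1 the highest in cTEC, at 41.8 CPM per kb in Cre cTEC and 18.2 CPM per kb in control cTEC. Frem1 was the lowest in mTEC, at 0.809 CPM per kb in Cre and 0.244 CPM per kb in control, and Stmn2 the lowest in control cTEC at 0.335 CPM per kb, where Cre cTEC had 1.41. In Cre cTEC the lowest was Frem1 at 0.897 CPM per kb.

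The order of the 4 groups separated the members further. Stmn2, Pde1b, Nos1 and Gja4 ran, from high to low, Cre mTEC, control mTEC, Cre cTEC and control cTEC, and no neighbours in that order overlapped. Clrn1 ran Cre mTEC, Cre cTEC, control mTEC and control cTEC, also without overlap, although the lowest control mTEC and highest control cTEC libraries stood at 12.1 and 11.9 CPM. Lgi2 followed the same order, with Cre mTEC and Cre cTEC overlapping. In Lrrc16b the order was again the same, and Cre cTEC overlapped both of its neighbours, Cre mTEC and control mTEC. Fbxl22 and Frem1 ran Cre cTEC, Cre mTEC, control cTEC and control mTEC, with the 2 Cre groups overlapping for Frem1. Syngr1 alone among the 10 had both cTEC groups above both mTEC groups.

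Whether the genotype effect differed between cortex and medulla was tested as the difference of the log2 fold changes, cTEC minus mTEC, a contrast other than the average that chose the members. In a balanced design the 2 are uncorrelated where the spread is equal in both cell types; here the standard errors differed (0.43 in cTEC and 0.21 in mTEC for Stmn2, 0.22 in cTEC and 0.11 in mTEC for Gja4), and the members also lack overlap within each cell type, so the separation from the choice is approximate. It was larger in cTEC for 3 of the 10 members and larger in mTEC for 0, against 2.92% and 1.08% of all genes tested. Lrrc16b differed by 1.60 (SE 0.22, edgeR adjusted p = 0.000969), Gja4 by 1.40 (SE 0.25, adjusted p = 0.00334) and Pde1b by 1.36 (SE 0.22, adjusted p = 0.0022). Each is a ratio of folds: the Cre over control fold of Lrrc16b was 3.02 times as large in cTEC as in mTEC, that of Gja4 2.64 times and that of Pde1b 2.56 times. At an unadjusted p under 0.05 there were 6 members, of which Frem1 was the only one toward mTEC, and the count toward mTEC was 0 by DESeq2 and by limma voom too. Lrrc16b, Gja4 and Pde1b kept their direction and passed in each of 18 alternative analyses, with values of 1.36 to 1.76 for Lrrc16b, 1.31 to 1.51 for Gja4 and 1.13 to 1.52 for Pde1b and adjusted p up to 0.00433, 0.0314 and 0.00974.

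The other 7 members did not pass this test. Nos1 differed by 0.92 (SE 0.34, edgeR adjusted p = 0.153) and Lgi2 by 0.76 (SE 0.31, adjusted p = 0.207), toward cTEC. Frem1 differed by -0.97 (SE 0.39, adjusted p = 0.206), toward mTEC. A missed threshold does not show equal effects: Nos1 passed with no filter on low counts (1.00, adjusted p = 0.0045), by DESeq2 (1.04, adjusted p = 0.0441) and without library 5 (1.19, adjusted p = 0.0457) and Lgi2 with no filter (0.85, adjusted p = 0.0272) and without library 11 (0.98, adjusted p = 0.0307). Stmn2 at 0.32 (SE 0.49), Syngr1 at 0.22 (SE 0.43), Clrn1 at -0.33 (SE 0.25) and Fbxl22 at -0.45 (SE 0.31) had adjusted p from 0.524 to 0.868. The median difference over the members was 0.54, against -0.04 over all genes tested.

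**Figure D2:**
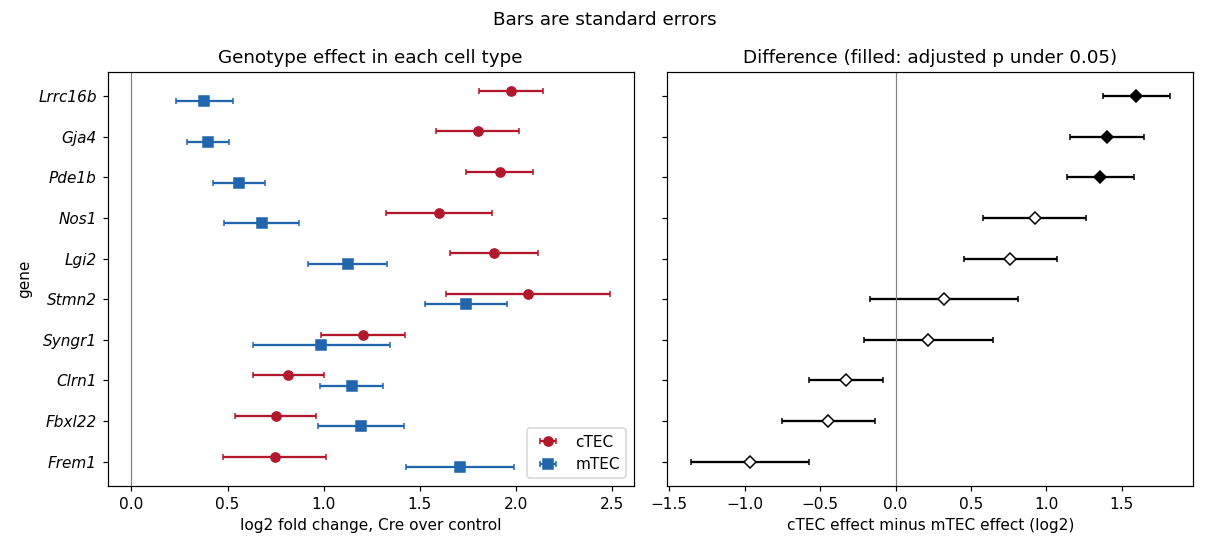
Log2 fold change of Cre over control with its standard error for each gene in cTEC and in mTEC, from 1 edgeR fit of 12 libraries. All 20 values are above 0, and the gap between the cell types is widest for Lrrc16b (1.97 in cTEC, 0.38 in mTEC), Gja4 and Pde1b, while Frem1, Fbxl22 and Clrn1 have the higher value in mTEC.

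In control libraries, 7 members were higher in mTEC than in cTEC and 3 were lower, against 29.3% and 30% of all genes tested. Gja4 was 42.9-fold higher (log2 fold change 5.42, edgeR adjusted p = 1.07e-14), Stmn2 15.4-fold (3.94, adjusted p = 1.26e-08), Pde1b 9.73-fold (3.28, adjusted p = 5.22e-12), Nos1 7.27-fold (2.86, adjusted p = 1.21e-08) and Lrrc16b 3.16-fold (1.66, adjusted p = 6.34e-08). Lgi2 (0.90, adjusted p = 0.00296) and Clrn1 (0.48, adjusted p = 0.0298) were closer. The call for Clrn1 was lost when control library 1, 2, 3, 7 or 9 was left out, with an adjusted p of up to 0.117. Syngr1 was 19.1-fold lower in mTEC (edgeR adjusted p = 3.13e-10), Frem1 2.15-fold (adjusted p = 0.00357) and Fbxl22 1.91-fold (adjusted p = 0.00175). The members' median was 1.28, against -0.05 over all genes tested.

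In Cre libraries, 5 members were higher in mTEC and 1 was lower, against 25.1% and 24.5% of all genes tested. Gja4 was 16.2-fold higher in mTEC (edgeR adjusted p = 8.37e-14), Stmn2 12.3-fold (adjusted p = 6.14e-10), Nos1 3.83-fold (adjusted p = 3.67e-07), Pde1b 3.80-fold (adjusted p = 1.46e-09) and Clrn1 1.75-fold (adjusted p = 0.000402). Syngr1 was 22.2-fold lower (adjusted p = 9.43e-11). Lrrc16b (log2 fold change 0.06, SE 0.15, adjusted p = 0.753), Lgi2 (0.14, SE 0.20, adjusted p = 0.583), Frem1 (-0.14, SE 0.26, adjusted p = 0.689) and Fbxl22 (-0.49, SE 0.21, adjusted p = 0.0553) did not pass, and Fbxl22 passed without library 10 (-0.57, adjusted p = 0.0479), which made 2 members lower in mTEC. The change of the cell type difference between genotypes is the same quantity as the difference of effects above, so of these 4 only Lrrc16b had a cell type difference shown to be different in Cre. The members' median was 0.48, against -0.02 over all genes tested.

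**Figure D3:**
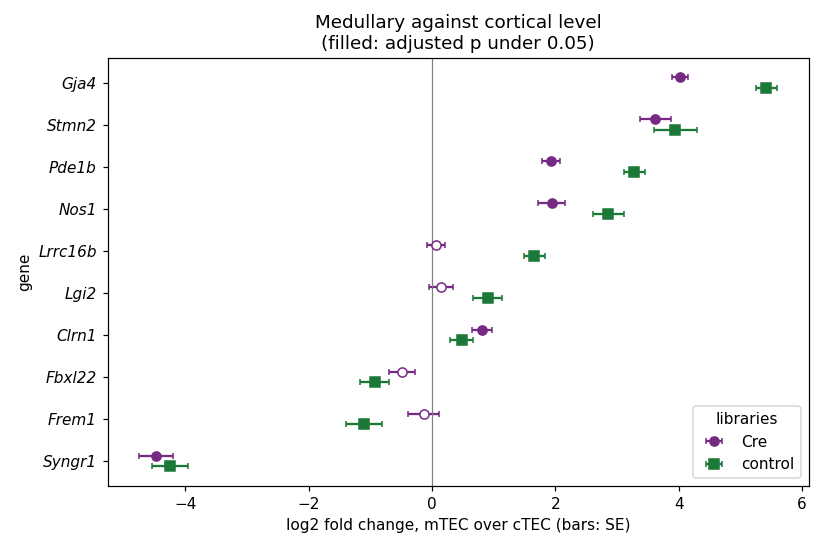
Log2 fold change of mTEC over cTEC with its standard error for each gene, in Cre libraries and in control libraries. Gja4 has the highest values (4.02 in Cre, 5.42 in control), Syngr1 lies below -4 in both, and Lrrc16b is near 0 in Cre and at 1.66 in control.

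Expressed as a share of the control level in the other cell type, Cre cTEC held 123% of the control mTEC level of Lrrc16b, against 31.7% in control cTEC. For Lgi2 these shares were 195% in Cre cTEC and 53.3% in control cTEC, and for Clrn1 126% in Cre cTEC and 71.8% in control cTEC. Pde1b was at 38.2% in Cre cTEC and 10.3% in control cTEC, Nos1 at 42.9% in Cre and 13.7% in control, Stmn2 at 26.2% in Cre and 6.24% in control, and Gja4 at 8.05% in Cre and 2.32% in control. For the members higher in control cTEC, Cre mTEC held 120% of the control cTEC level of Fbxl22, against 52.9% in control mTEC. Frem1 was at 153% in Cre mTEC and 46% in control mTEC, and Syngr1 at 10.4% in Cre mTEC and 5.23% in control mTEC.

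Markers of mature mTEC gave both directions on this measure. Aire, the regulator of promiscuous expression, was at 0.666% of its control mTEC level in Cre cTEC and 1.19% in control cTEC, and Cd80, a costimulatory ligand, at 3.41% in Cre and 4.78% in control. Tnfrsf11a, the receptor RANK, was at 8.77% in Cre cTEC and 4.95% in control cTEC. Of the 10 mature mTEC markers, none was at 0 in any whole group, and the ranges of their sum in Cre cTEC (106 to 151 CPM) and control cTEC (87.8 to 115 CPM) overlapped. In Cre cTEC the shares of the 10 markers ran from 0.666% for Aire to 20.7% for Cd40, a receptor of the tumour necrosis factor family, with Cd86 at 19.6% and Ccl17 at 14.5%. The shares of the 7 members that are higher in mTEC ran from 8.05% for Gja4 to 195% for Lgi2. In Cre cTEC only Gja4 lay within the range of the markers, and the others, from 26.2% for Stmn2 upward, lay above it. In control cTEC the marker shares ran from 1.19% for Aire to 33.5% for Cd86, a range that also holds 26.2%. The control cTEC shares of Gja4, Stmn2, Pde1b, Nos1 and Lrrc16b lay within that range, and those of Lgi2 and Clrn1 above it. The placing of the members thus depends on which marker range is used. In cTEC, edgeR called 3 of the 10 markers higher in Cre and 0 lower, against 5.62% and 3.38% of all genes tested. These were Cd40 by 1.02 (edgeR adjusted p = 0.00234), Tnfrsf11a by 0.83 (adjusted p = 0.000956) and Fezf2 by 0.76 (adjusted p = 0.00461). The falls of Aire (adjusted p = 0.0848) and Cd80 (adjusted p = 0.55) did not pass. The log2 fold change was positive for 4 of the 10, with a median of -0.70. The part of medullary cells in the cortical sort in the members' differences was not tested.

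**Figure D4:**
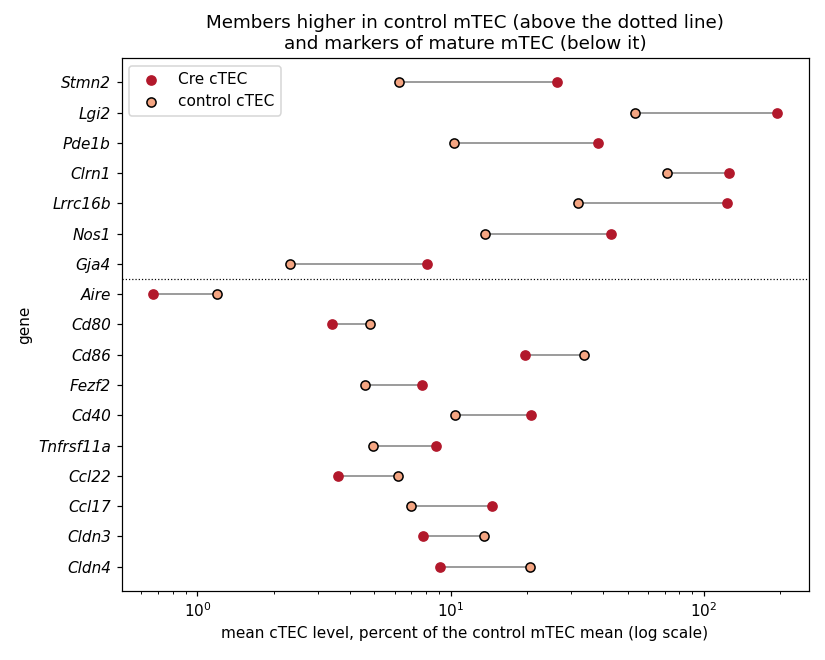
Mean level in Cre cTEC and in control cTEC, as a percent of the control mTEC mean, on a log axis. Shown are the 7 members higher in control mTEC and the 10 markers of mature mTEC. Cre lies above control for all 7 members shown, a direction their choice fixes. The mature mTEC markers lie on both sides (Aire 0.666% in Cre and 1.19% in control, Tnfrsf11a 8.77% in Cre and 4.95% in control).

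The members also varied among libraries of a group. The SD of log2(CPM + 1) within groups, pooled over the 4, ran from 0.13 for Fbxl22 and Gja4 to 0.37 for Stmn2 and 0.40 for Syngr1. The added 1 CPM narrows this spread where levels are low, as for Stmn2 at 0.505 to 1.71 CPM in control cTEC. The deviations that follow are on the same scale. In Cre cTEC, library 10 was above its group mean for 7 of the 10 members, with a median deviation of 0.22 on the log2 scale against 0.04 over all genes tested. Library 11, which has the fewest counts, was below its group mean for 7, with a median of -0.09, the lowest for Syngr1 (-0.60) and the highest for Nos1 (0.51). In Cre mTEC, library 5 was above for 9 of the 10, with Stmn2 at 0.52. Without library 11 the averaged log2 fold change of the members lay between 0.92 (Fbxl22) and 1.91 (Stmn2).

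**Figure D5:**
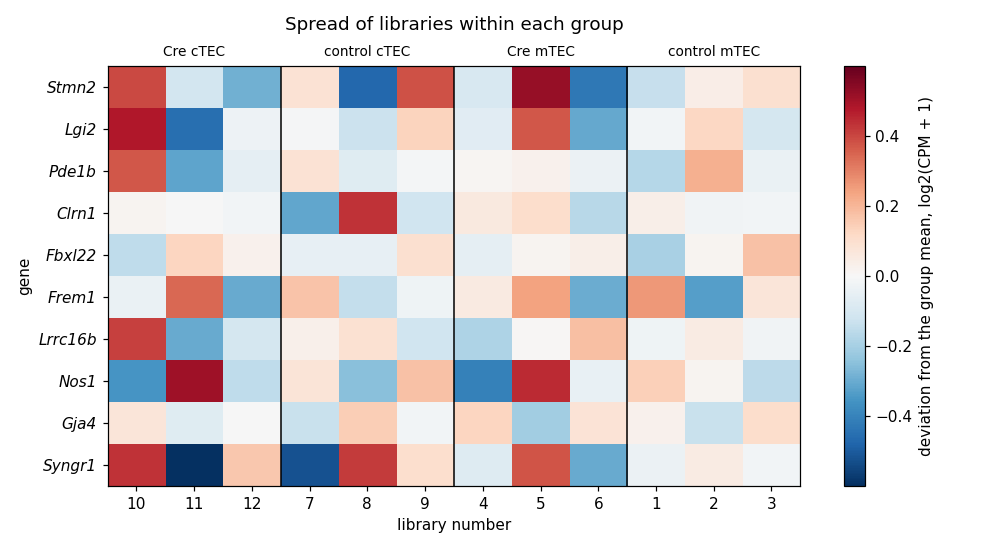
Heatmap of the deviation of each library from its group mean of log2(CPM + 1), given by colour, with the 10 genes as rows and the libraries as columns arranged by group. Library 5 is above 0 for 9 of 10 genes, and library 11 runs from -0.60 (Syngr1) to 0.51 (Nos1).

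The genes most like each member were ranked by Pearson's r of log2(CPM + 1) over the 12 libraries after each cell type was centred on its own mean. These values share the genotype difference that chose the members, so they are a description with no test. The nearest gene to Pde1b was Msc, a basic helix-loop-helix factor (r = 0.989), followed by Dact1 (0.984), an inhibitor of Wnt signalling. Nearest to Lrrc16b were Arhgap26 (0.982) and Asap2 (0.980), and Maz, a zinc finger factor, was among the 3 nearest of both Lrrc16b (0.979) and Gja4 (0.964). Ttyh3, a chloride channel, was the nearest to Gja4 (0.973). Rragd, a GTPase of amino acid sensing, was nearest to Lgi2 (0.965) and Slc46a2, a thymic stromal transporter, to Syngr1 (0.964).

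Clrn1, Frem1 and Fbxl22, whose log2 fold change was larger in mTEC, had other neighbours. Ptprd (0.959) was nearest to Clrn1, Peli2 (0.959) to Frem1 and St6gal1 (0.926) to Fbxl22, while Sestd1 was among the 3 nearest of both Clrn1 (0.954) and Fbxl22 (0.926). Stmn2 (nearest Zcchc11, 0.937) and Nos1 (nearest Aldh1l2, 0.931) had looser matches. Lgi2, the second nearest gene to Stmn2 (0.933), was the only member among the 3 nearest genes of another.

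The families and pathways of the members were examined through 11 lists that hold 115 other genes tested. Averaged over the cell types, 3 of the 115 rose (2.61%) and 7 fell (6.09%), against the 3.6% and 3.61% of all genes given above, and their median log2 fold change was -0.07 against 0.01. The count that fell was 12 by DESeq2, 19 without library 11, 4 without library 3 or 12 and 3 without library 1, 5 or 7. The count that rose was 1 without library 4, 5 without library 10 and 6 with no filter on low counts. In cTEC 6 rose (5.22%) and 7 fell (6.09%), and in mTEC 1 rose (0.87%) and 0 fell by edgeR, where 15 were lower at an unadjusted p under 0.05 and DESeq2 called 3 lower. The list of 30 neuronal and synaptic genes had 0 that rose averaged, by edgeR, by DESeq2 or at an unadjusted p under 0.05, and 1 that fell by edgeR, the growth cone gene Gap43, by 1.26 (edgeR adjusted p = 0.0284). DESeq2 called 2 neuronal genes lower, and 5 were lower at an unadjusted p under 0.05. Gap43 was at 0.488 CPM in Cre cTEC and 1.31 CPM in control cTEC, and at 1.01 CPM in Cre mTEC and 2.35 CPM in control mTEC, and its call was lost without any 1 of 8 libraries (1, 2, 3, 4, 5, 7, 9 or 12). The averaged log2 fold change was positive for 15 of the 30 neuronal genes, with a median of -0.01. In cTEC alone the neurofilament gene Nefm rose by 0.74 (edgeR adjusted p = 0.0475), a call lost under 13 of 19 alternatives: limma voom, a robust fit, the compared libraries alone, and without library 1, 2, 3, 5, 6, 7, 8, 9, 10 or 12. The microtubule gene Mtap2 fell there by 0.48 (adjusted p = 0.0364), a call lost with no filter, with the compared libraries alone and without library 2, 5, 7 or 12.

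By family, 0 of 2 other stathmins, 0 of 5 LGI proteins and ADAM receptors, 0 of 16 cyclic nucleotide phosphodiesterases, 0 of 5 CARMIL and capping protein genes, 0 of 5 of the synaptogyrin and synaptophysin family and 0 of 5 ligase partners and substrates of Fbxl22 passed edgeR's test in the averaged comparison in either direction. At an unadjusted p under 0.05, 3 phosphodiesterases were higher and 2 lower, 2 genes of the synaptogyrin family were lower and 1 ligase partner was lower, with 0 in the other 3 families. DESeq2 called 1 phosphodiesterase, 2 of the synaptogyrin family and 1 ligase partner lower, and 0 higher. Among 10 clarin and Usher genes, Whrn rose by 0.64 (SE 0.10, edgeR adjusted p = 0.000614). Whrn encodes whirlin, a scaffold of the Usher complexes, and was at 54.9 ± 14.5 CPM in Cre cTEC and 26.2 ± 1.73 CPM in control cTEC, and at 99.1 ± 9.63 CPM in Cre mTEC and 85.9 ± 1.85 CPM in control mTEC (SD, n = 3 each). In cTEC alone it rose by 1.08 (adjusted p = 0.00013), and Myo7a, the motor of the same complexes, by 0.75 (adjusted p = 0.027), a call lost without library 8, 9 or 10.

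Of 6 FREM and FRAS genes, Frem2, the partner of Frem1 in the basement membrane complex, rose by 0.89 (edgeR adjusted p = 0.013) and nephronectin, Npnt, a ligand of integrin alpha 8, fell by 0.26 (adjusted p = 0.0414). Frem2 was at 45.8 ± 13.6 CPM in Cre cTEC and 21 ± 6.17 CPM in control cTEC, and at 6.32 ± 2.33 CPM in Cre mTEC and 4.07 ± 1.48 CPM in control mTEC (SD, n = 3 each). Its averaged call was lost without library 4 (adjusted p = 0.0583), and that of Npnt with no filter on low counts and without library 1, 2, 3, 5, 6, 7, 8, 9 or 12.

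Of 11 other connexins tested, Gjc1 (connexin 45) rose by 0.43 (edgeR adjusted p = 0.0185), and Gjb6 (connexin 30) and Gja1 (connexin 43) fell by 0.62 (adjusted p = 0.0137) and 0.32 (adjusted p = 0.0177). Gjc1 was at 16.8 ± 1.29 CPM in Cre mTEC and 9.66 ± 1.03 CPM in control mTEC, and Gja1 at 171 ± 5.68 CPM in Cre cTEC and 254 ± 32.8 CPM in control cTEC (SD, n = 3 each). The calls were lost for Gjc1 without library 1, 3 or 4, for Gja1 without 1, 5 or 7 and for Gjb6 without 9, with adjusted p of up to 0.0594, 0.0607 and 0.0514.

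Of 20 other nitric oxide and cGMP genes, 0 rose averaged and 3 fell. DESeq2 called 0 higher and 2 lower, and at an unadjusted p under 0.05 edgeR had 1 higher and 6 lower. Calm2, a calmodulin gene, fell by 0.35 (edgeR adjusted p = 0.00862) and Dynll1, a dynein light chain that binds neuronal nitric oxide synthase, by 0.34 (adjusted p = 0.00889), and both calls held in all 18 alternatives. Nos2, the inducible nitric oxide synthase, fell by 1.02 (adjusted p = 0.0266), at 127 ± 43.8 CPM in Cre mTEC and 235 ± 38.1 CPM in control mTEC (SD, n = 3 each). That call was lost under DESeq2, under a robust fit and without library 1, 3, 4, 5, 7, 8, 10 or 12. In cTEC alone Gch1, which makes the cofactor of these synthases, rose by 0.82 (adjusted p = 0.0204), a call lost with the compared libraries alone and without library 7, 9 or 10.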

How the data were processed

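RNA of sorted cells was purified with a NucleoSpin kit and turned into libraries with a SMARTer low-input kit, per the labels' protocols. What the authors deposited is a single table of unnormalized counts of reads, by gene symbol. STAR, HTSeq and edgeR on build mm9 are named in the submitters' processing notes; their versions, the annotation and the strand setting were not given in the sources at hand. Each of the 12 columns matched 1 sample. The genes and lists were chosen with earlier results of these data known. Named genes were the 10 members, up to 4 genes per list by p among those past the threshold, the 3 nearest genes per member and the 3 just below the lowest member.

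Levels are CPM computed from the deposited counts with TMM factors. Comparisons used the quasi-likelihood test of edgeR 4.0.16 in R 4.3.3, two-sided, in 1 fit of 4 groups (8 residual degrees of freedom) over 17268 genes that passed filterByExpr, with Benjamini-Hochberg adjustment and a threshold of 0.05. Standard errors are the absolute log2 fold change divided by the square root of F. The fit was tested on simulated data. Other settings tried were size factors of DESeq2, the DESeq2 1.42.0 test, voom in limma 3.58.1, a robust fit, a filter removed or raised to 5 CPM in at least 3 libraries, a fit to the compared libraries alone, and leaving out every library in turn. Transcript lengths came from GENCODE M21 on GRCm38 and promoter windows from RefSeq on GRCm38.p6, matched by symbol. That build differs from mm9, and no position was carried between them.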

Additional observations from a re-analysis of the deposited data

Results flagged for a closer look

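For 3 members the genotype effect differed between the cell types, by a test of the difference itself in edgeR, with larger values in cTEC: Lrrc16b by 1.60, Gja4 by 1.40 and Pde1b by 1.36 on the log2 scale (adjusted p = 0.000969, 0.00334 and 0.0022). The 3 Cre cTEC libraries were above the 3 control cTEC libraries for each of these genes, and the same held in mTEC, with ratios of lowest Cre to highest control of 1.1, 1.06 and 1.24 there. This lack of overlap was shared by all 10 members and is favoured by their choice, so it adds nothing to the test. It was found in both cell types for 163 of the 621 genes called higher in Cre when averaged, and it was not counted over the other genes tested. Groups held 3 libraries each, too few to look for single outlying samples.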

How the results depend on the processing

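The members' 30 genotype effects stayed positive in all 560 values over 19 alternative settings. Of these, 555 moved by less than the gene's pooled SD of log2(CPM + 1) within groups. Of 560 values of the tested member comparisons, 539 kept their direction and side of the threshold, 5 lost the call (Clrn1, mTEC over cTEC in control), 6 gained one and 10 changed sign, each in a comparison that passed neither way (adjusted p of at least 0.781). With 1 library left out, the difference of effects ran from -0.017 to 0.777 for Stmn2 (below 0 without library 8 or 10) and from -0.011 to 0.486 for Syngr1 (below 0 without 10). In Cre, mTEC over cTEC ran from -0.077 to 0.440 for Lgi2 (below 0 without 5 or 11), from -0.292 to 0.075 for Frem1 (above 0 without 6 or 11) and from -0.049 to 0.308 for Lrrc16b (below 0 without 6, 11 or 12). Members with a larger effect in cTEC numbered 5 with no filter on low counts, where Nos1 and Lgi2 were added to the 3. Members lower in mTEC in Cre numbered 1 to 2 when 1 library was left out. Among the list genes, those that rose averaged numbered 6 with no filter and 1 to 5 with 1 library left out, the 1 without library 4, against 3. Those that fell numbered 11 with DESeq2's size factors, 12 with DESeq2 and 3 to 19 with 1 library left out, the 19 without library 11, against 7. The causes were not tested. No paired analysis was possible because the labels do not say which libraries, if any, came from the same animal. Low counts limit Stmn2 in control cTEC, where 3 to 12 counts were read, and Frem1 and Gja4 with at most 74 and 72 counts in any cTEC library. They also limit control mTEC, with 15 to 33 counts for Frem1, 28 to 29 for Fbxl22 and 30 to 43 for Syngr1.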
